A study of Mus musculus with 2 samples.

Results

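The miR-23/27/24 genes are a small family of microRNA (miRNA) genes arranged in paralogous clusters, and their levels were examined here in mouse neural tube. Members were chosen by name: every row of the count tables whose gene name is Mir23a, Mir27a or Mir24-2 (the chromosome 8 cluster, called cluster a) or Mir23b or Mir27b (the chromosome 13 cluster, called cluster b). All 5 were found among 1973 miRNA genes. Mir24-1, the miR-24 gene of cluster b, is not analysed here as a gene of its own.

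The tissue was neural tube, which forms brain and spinal cord, from healthy B6NCrl mouse embryos of both sexes, pooled, at embryonic day 13.5. Small RNAs of under 30 nt were sequenced in 2 libraries, labelled biological replicates 1 and 2, from separate tissue samples that share a donor entry. There was a single condition, with no treatment and no altered genotype. The comparisons are therefore between genes within a library, and between the 2 libraries.

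A miRNA gene is transcribed into a hairpin that is cut into short mature strands, named 5p and 3p after their arm. Bases 2 to 8 of a mature miRNA, the seed, pair with target mRNAs and largely decide which messages are repressed. The miR-23, miR-27 and miR-24 hairpins of a cluster lie close together and are known to be cut from a shared primary transcript, although they belong to different seed families. The clusters are known for roles in endothelial cells and blood vessel growth, in blood cells and in muscle, miR-27 also for limiting fat cell formation, and miR-24 for limiting cell death in the developing retina.

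The mature sequences show which reads can separate the paralogs, and they are shown for that reason. They were taken from RefSeq (GRCm38.p6), where all 5 members had a hairpin entry, and seeds are in capitals. The 3p strands come first, and the miR-27 pair among them shows how alike these paralogs are. Mir23b also gives miR-23b-3p, which had no mature entry among the sequences used here. The miR-23 pair was therefore not compared on this arm.
miR-23a-3p: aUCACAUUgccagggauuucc
miR-27a-3p: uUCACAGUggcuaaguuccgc
miR-27b-3p: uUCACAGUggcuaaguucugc
miR-24-3p, made by both miR-24 genes: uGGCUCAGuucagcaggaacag
miR-3074-5p, from the strand opposite to miR-24: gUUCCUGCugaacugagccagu

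Counting from the 5′ end, miR-27a-3p and miR-27b-3p differ by the single substitution C19U, so their first 18 bases are identical and they share the seed UCACAGU. A read of this arm that ends before position 19 could not be assigned to either gene. The miR-23 seed, UCACAUU in miR-23a-3p, differs from it. The miR-24-3p sequence is the same from both loci. The other arms differ more, and they are shown because a read of these arms can more readily be placed at 1 locus.
miR-23a-5p: gGGGUUCCuggggaugggauuu
miR-23b-5p: gGGUUCCUggcaugcugauuu
miR-27a-5p: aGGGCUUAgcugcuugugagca
miR-27b-5p: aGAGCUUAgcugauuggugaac
miR-24-2-5p: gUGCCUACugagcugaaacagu
miR-24-1-5p: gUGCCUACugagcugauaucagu

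The 5p strands of miR-27a and miR-27b differ at 8 of 22 positions, and those of miR-23a and miR-23b share no stretch longer than 10 bases. The 5p strands of the miR-24 genes are identical over their first 16 bases. At hairpin level, Mir23a and Mir23b share a stretch of 20 nt, as do Mir27a and Mir27b, and Mir24-2 shares 28 nt with Mir24-1. All 5 members therefore share at least 20 nt with a paralog. Reads that mapped to several places, 28.5% of all reads in replicate 1 and 31.0% in replicate 2, were inferred from the table layout to be in no gene's count. How many of them came from these miRNAs was not tested. The count tables do not separate 5p from 3p reads.

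Among the RefSeq mature mouse miRNAs used here, the miR-27-3p seed occurred in no gene but Mir27a and Mir27b. That set was incomplete, as it lacked miR-23b-3p. The miR-24-3p seed GGCUCAG was also present in Mir5124b, Mir6369, Mir6410 and Mir6413. These 4 genes had 0 counts in both libraries, which allows up to 0.427 CPM (counts per 1000000 same-strand counts on miRNA genes) in replicate 1 and 0.523 CPM in replicate 2.

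Cluster a lies on the plus strand of chromosome 8 (GRCm38): Mir23a at 84208518 to 84208592, Mir27a at 84208672 to 84208758 and Mir24-2 at 84208815 to 84208921. It spans 404 bp, with gaps of 79 and 56 bp between hairpins, and lies within no other annotated gene of its strand. The last 2 bp of the Mir24-2 hairpin overlap the first exon of the long non-coding RNA Gm26532. The nearest protein-coding gene, Zswim4, lies 1757 bp from Mir24-2 on the minus strand.

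Cluster b lies on the plus strand of chromosome 13, with Mir23b at 63300484 to 63300557, Mir27b at 63300712 to 63300784 and Mir24-1 at 63301208 to 63301275. It spans 792 bp inside the aminopeptidase gene Aopep, which the annotation used here calls 2010111I01Rik, and opposite to Fancc, a gene of the Fanconi anaemia DNA repair pathway. Mir23b is intronic in its host gene. Mir27b is covered over all of its 73 bp by an exon of a transcript annotated for nonsense-mediated decay, and by no other exon of the host. Its gap to Mir23b is 154 bp, and the gap from Mir27b to Mir24-1 is 423 bp. On the minus strand, Mir3074-1 at 63301199 to 63301283 overlaps Mir24-1, and miR-3074-5p lies opposite to 20 bases of miR-24-3p.

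**Figure D1:**
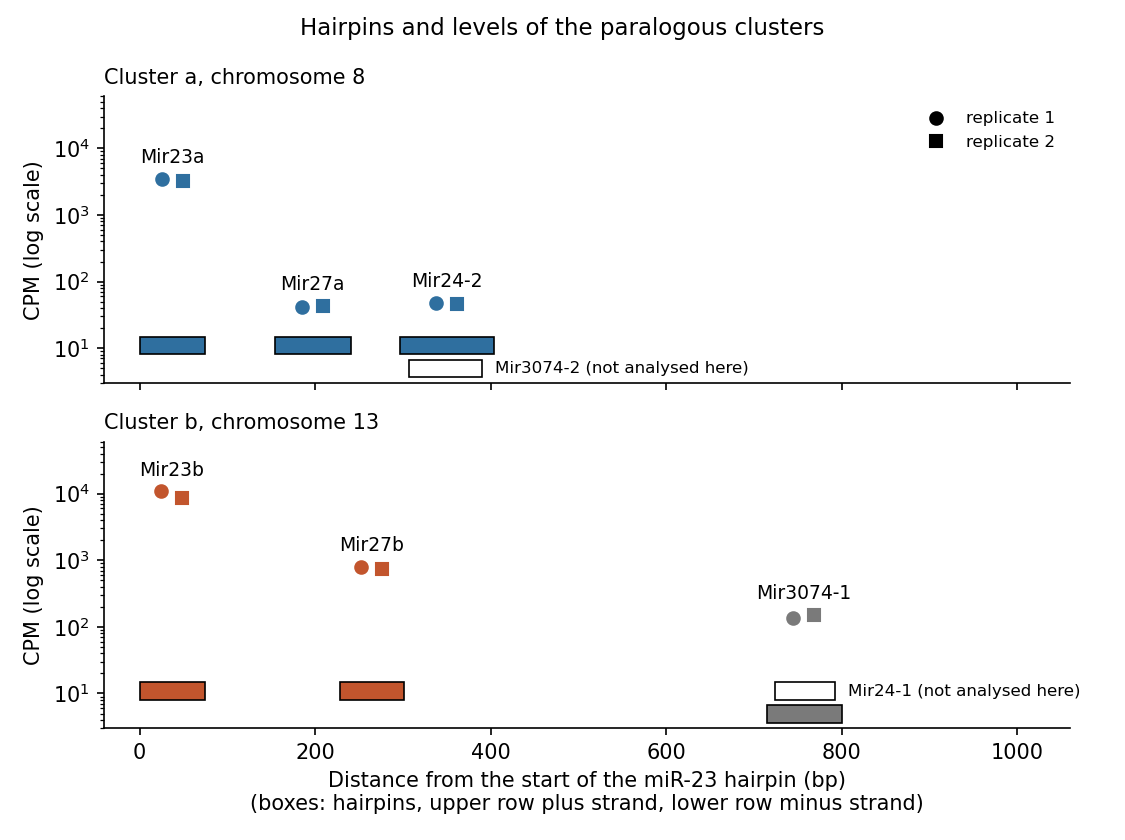
Hairpins of cluster a (top) and cluster b (bottom) by distance in bp from the start of the miR-23 hairpin, with each gene's CPM on a log axis in replicate 1 (circles) and replicate 2 (squares). In both clusters the miR-23 gene comes first and has the highest CPM of the genes counted. Cluster b is spread over 792 bp against 404 bp for cluster a.

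The libraries held 7019469 and 5738209 same-strand counts on miRNA genes. Of the neural markers (Mir9, Mir124a, Mir137, Mir153 and Mir219a-2 genes), 5 of the 8 analysed had at least 10 counts in each library. The neural list summed to 8273 CPM in replicate 1 and 8437 CPM in replicate 2. Most of this came from Mir137 (5025 and 5168 CPM) and Mir219a-2 (2360 and 2342 CPM). Mir9-2 had only 9 and 3 counts, Mir124a-1 14 and 8, Mir124a-2 31 and 15, and Mir124a-3 1 and 0. Markers of other cell types were present as well. The 3 endothelial genes Mir126a, Mir221 and Mir222 summed to 17291 and 16163 CPM, of which Mir126a held 17134 and 16019. The 7 blood genes summed to 332 and 285 CPM. Mir142b of the blood list had 0 same-strand counts but 1233 and 984 on the opposite strand, and with these the blood sum was 508 and 456 CPM. Marker hairpins were not searched for stretches shared with other hairpins. Marker counts here and below may lack reads that map to several places, so the sums do not rank cell types. The libraries thus held miRNAs known from several cell types, and in bulk tissue fewer cells of a type and less RNA per cell cannot be told apart. No count of a member can be assigned to a cell type.

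Cluster b held more counts than cluster a, and miR-23 genes held most of the counts of both. Mir24-1 is not in the count of cluster b. Shares here and below may lack reads that map to several places, such as those of the mature miR-24 strand made by both clusters. The effect of such reads on the shares was not tested. The 5 members held 1.53% of the same-strand counts in replicate 1 (Wilson 95% interval 1.52% to 1.54%) and 1.29% in replicate 2 (1.28% to 1.30%). Intervals cover counting error only, as these reads carry no molecular identifiers. Cluster b held 1.17% and 0.949%, a mean of 1.06% ± 0.16 (SD, n = 2). Cluster a, with a gene more in the count, held 0.360% and 0.337%, a mean of 0.349% ± 0.016. The share of cluster b was above that of cluster a in both libraries. Gene by gene the clusters overlapped, since Mir23a of cluster a exceeded Mir27b of cluster b in both.

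Mir23b, the first gene of cluster b, had 76516 counts in replicate 1 and 50171 in replicate 2, or 10900 and 8743 CPM. It ranked 16th and 19th of all genes, and its mean of 9822 ± 1525 CPM made up 69.6% ± 2.33 of the counts of the 5 members. Mir23a, the first gene of cluster a, had 24648 and 18847 counts, or 3511 and 3284 CPM (mean 3398 ± 160 CPM). It ranked 43rd and 44th and made up 97.4% ± 0.10 of the counts of its cluster. Both miR-23 genes were thus among the better-covered genes, with counting intervals within a few percent of each value.

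Mir27b, in the middle of cluster b, had 5588 and 4294 counts, or 796 and 748 CPM (mean 772 ± 33.8 CPM, ranks 87 and 91). Mir27a, in the middle of cluster a, was far lower, with 291 and 250 counts, or 41.5 and 43.6 CPM (mean 42.5 ± 1.49 CPM, ranks 232 and 229). Mir24-2, the last gene of cluster a, had 339 and 261 counts, or 48.3 and 45.5 CPM (mean 46.9 ± 1.99 CPM, ranks 221 and 226). Mir27a and Mir24-2 lay close together and well below the other members in both libraries.

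The order of levels was Mir23b, Mir23a, Mir27b, Mir24-2 and Mir27a in both libraries. The first 4 were separated in each library by far more than the counting error and the spread of the libraries. The last pair was not: the log2 ratio of Mir24-2 to Mir27a was 0.22 in replicate 1, with an exact 95% counting interval of -0.0100 to 0.45, and 0.062 in replicate 2 (-0.19 to 0.32). Reads of a mature miRNA cover it whole, so counts were not divided by hairpin length. Ligation efficiency differs between miRNAs, and levels of different miRNAs compare reads and not molecules.

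**Figure D2:**
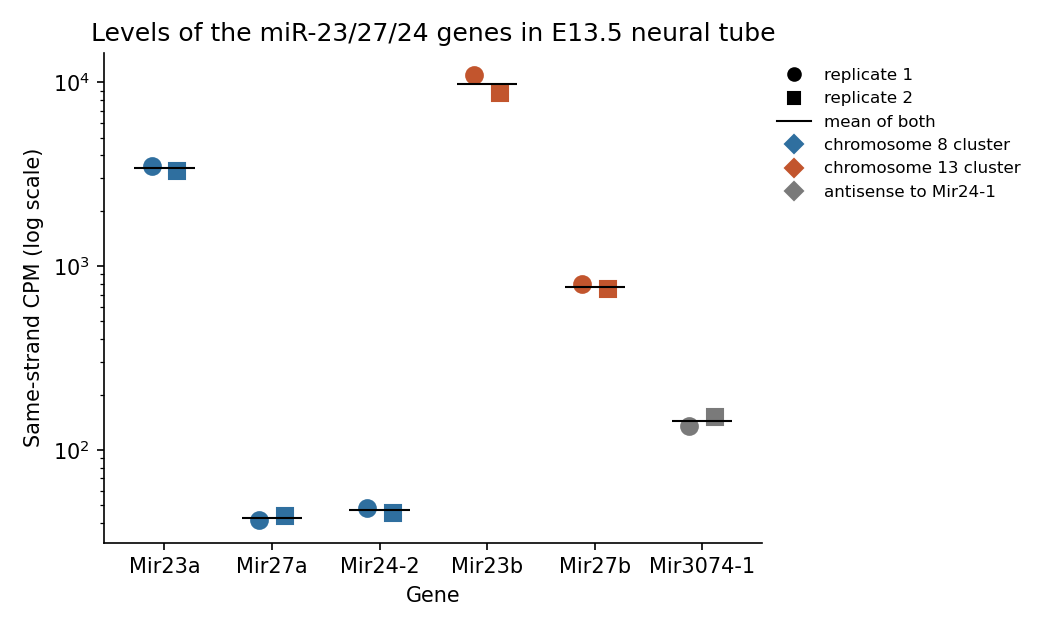
CPM on a log axis of the 5 members and of Mir3074-1 in replicate 1 (circles) and replicate 2 (squares), with the mean of both as a line. Mir23b and Mir23a stand highest at means of 9822 and 3398 CPM, and Mir27a and Mir24-2 lowest at 42.5 and 46.9 CPM.

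Between the clusters, both genes of cluster b exceeded their paralog in counts, and the gap was wider for miR-27 than for miR-23. Each pair shares 20 nt at hairpin level, and its counts may lack reads that map to several places. How far this changed the ratios below was not tested. Mir23b exceeded Mir23a by a log2 ratio of 1.63 in replicate 1 (exact 95% counting interval 1.61 to 1.66) and 1.41 in replicate 2 (1.39 to 1.44), a mean of 1.52 ± 0.16, or 2.87-fold. Mir23b thus took 75.6% and 72.7% of the counts of both miR-23 genes. The intervals of the 2 libraries did not overlap, so this ratio varied between the libraries beyond counting error.

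Mir27b exceeded Mir27a by a log2 ratio of 4.26 in replicate 1 (4.09 to 4.44) and 4.10 in replicate 2 (3.92 to 4.29), a mean of 4.18 ± 0.11, or 18.1-fold. Mir27b took 95.1% and 94.5% of the counts of both miR-27 genes. Here the intervals of the libraries overlapped. The b to a log2 ratio was larger for miR-27 than for miR-23 by 2.63 and 2.69 in the libraries, a mean of 2.66 ± 0.043, or 6.31-fold, a comparison chosen after the values were seen. Over the miR-23 and miR-27 genes together, cluster b exceeded cluster a by a log2 ratio of 1.62 ± 0.15, or 3.06-fold. All of these differences were many times the SD of the libraries and had the same direction in both. The smallest p-value of an exact two-sided sign-flip permutation test over 2 libraries is 0.5, and each ratio gave it.

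Within each cluster the miR-23 gene held most of the counts, more so in cluster a. Mir27a was below Mir23a by a log2 ratio of -6.40 in replicate 1 (-6.58 to -6.24) and -6.23 in replicate 2 (-6.42 to -6.06), a mean of -6.32 ± 0.12, so that Mir23a was 79.8-fold higher. Mir24-2 was below Mir23a by -6.18 (-6.34 to -6.03) and -6.17 (-6.36 to -6.00), a mean of -6.18 ± 0.0074, so that Mir23a was 72.3-fold higher. Reads of exactly miR-24-3p match Mir24-1 as well. If they were left out for that reason, this ratio sets only the remaining reads of Mir24-2 against Mir23a. In cluster b, Mir27b was below Mir23b by -3.78 (-3.81 to -3.74) and -3.55 (-3.59 to -3.50), a mean of -3.66 ± 0.16, so that Mir23b was 12.6-fold higher. The share of Mir27b within cluster b was 6.81% in replicate 1 and 7.88% in replicate 2, while that of Mir27a within cluster a was 1.15% and 1.29%. Genes known to be cut from a shared transcript therefore differed in counts by more than the libraries differed from each other. Counts of the miR-23 and miR-27 genes may also lack reads that map to several places. How far this changed the ratios within a cluster was not tested. The small SD for Mir24-2 rests on 2 values, and the counting intervals give the wider error.

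**Figure D3:**
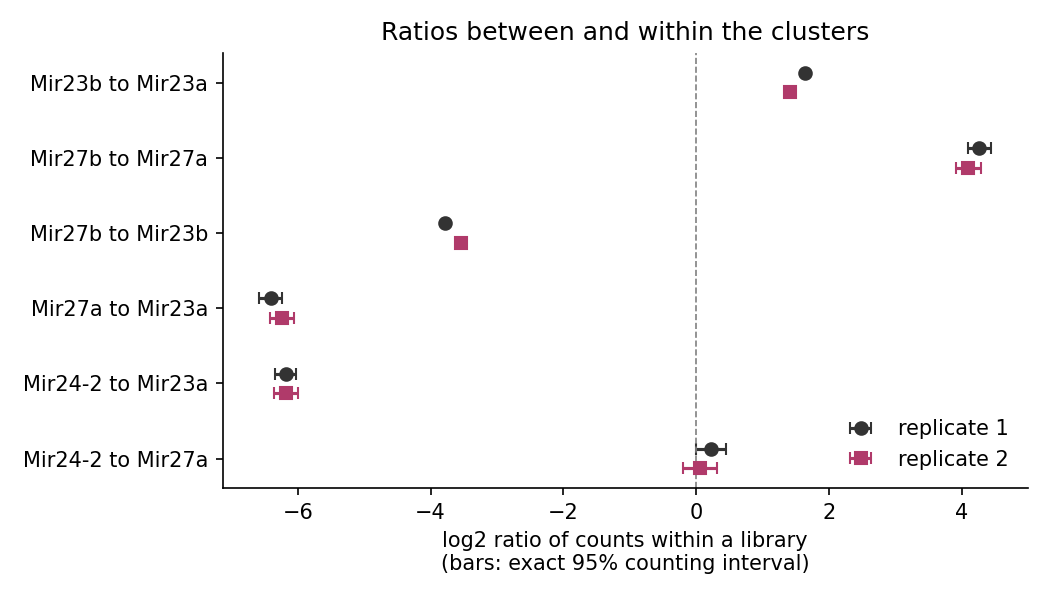
Log2 ratios of counts within replicate 1 (circles) and replicate 2 (squares), with bars for the exact 95% counting interval and a dashed line at equal counts. Mir27b to Mir27a, at a mean of 4.18, stands above Mir23b to Mir23a at 1.52, and only Mir24-2 to Mir27a has intervals that include 0.

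The miR-24 locus of cluster b was represented by its antisense gene. Mir3074-1 had 943 same-strand counts in replicate 1 and 871 in replicate 2, or 134 and 152 CPM (mean 143 ± 12.3 CPM, ranks 168 and 166). These are reads of the strand opposite to Mir24-1. Mir3074-1 stood above Mir24-2 by a log2 ratio of 1.47 (exact 95% counting interval 1.30 to 1.66) and 1.74 (1.54 to 1.94), a mean of 1.61 ± 0.19, or 3.04-fold. That comparison was chosen after the values were seen. Reads of exactly the 22 bases of miR-24-3p or of miR-3074-5p match both loci of that product. If such reads were left uncounted, as inferred above, the ratio of Mir3074-1 to Mir24-2 compares only the remaining reads of each gene. How many reads this removed from either gene was not tested.

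Differences of the members between the libraries were set beside those of all genes with at least 100 counts summed. By log2 CPM of replicate 2 minus replicate 1, Mir23b was lower at -0.32 (exact 95% counting interval -0.33 to -0.30), Mir23a at -0.096 (-0.12 to -0.069) and Mir27b at -0.089 (-0.15 to -0.032). Mir24-2 was at -0.086 (-0.32 to 0.15) and Mir27a at 0.072 (-0.18 to 0.32), both with intervals that include 0. None of the 5 members passed a difference of 0.5 log2 units, where 8.5% of the 306 genes with at least 100 counts summed did (26 genes). With 5 members, a count of 0 does not set them apart from that share. The median difference of the members was -0.089, and that of the 306 genes 0.039. With 1 library on each side these differences have no replicate check.

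Mir23b had the widest difference of the members, and 77.1% of the 306 genes differed by less. It was 1.25-fold higher in replicate 1, while its cluster neighbour Mir27b was 1.06-fold higher and its paralog Mir23a 1.07-fold higher. The counting interval of its difference did not overlap those of Mir23a, Mir27b and Mir27a, but did overlap that of Mir24-2. The summed endothelial markers were 1.07-fold higher in replicate 1 and the blood markers 1.17-fold higher (1.11-fold with the opposite-strand counts of Mir142b), while the neural markers stood at 0.980 of their level in replicate 2. Mesenchymal markers summed to 0.810 of their level in replicate 2, and the liver marker Mir122 was 3.86-fold higher in replicate 1. The muscle list came down to Mir206, at 117 and 373 CPM: the other 4 genes held 10 and 29 counts in all, with Mir133a-1 and Mir133a-2 at 0. The part of these markers in the difference of Mir23b was not tested.

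**Figure D4:**
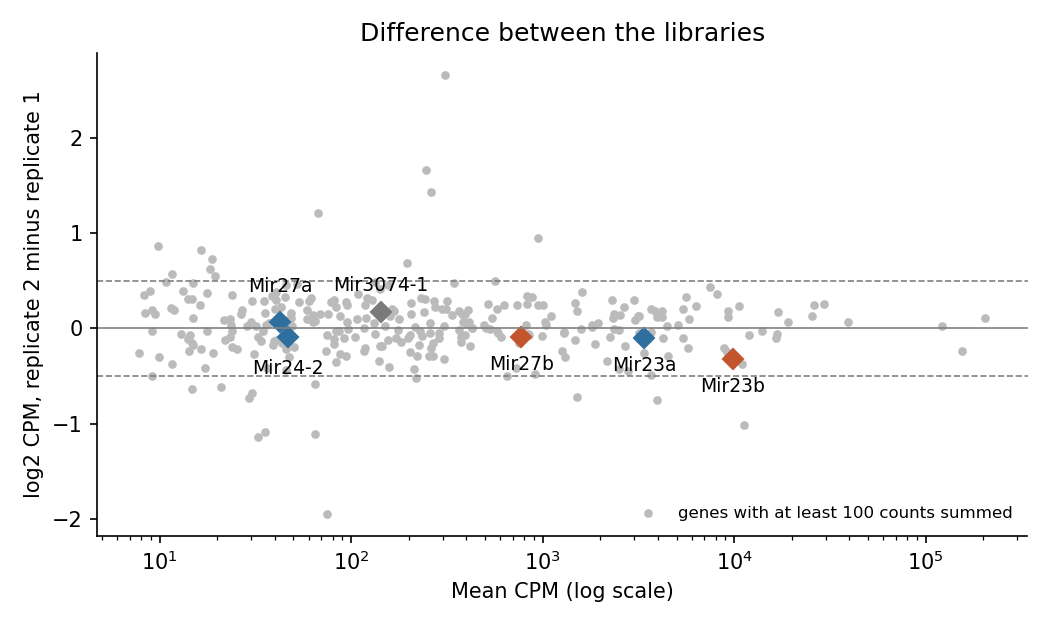
Log2 CPM of replicate 2 minus replicate 1 against mean CPM on a log axis, for the 306 genes with at least 100 counts summed (grey), with the members and Mir3074-1 as diamonds and dashed lines at 0.5 log2 units either way. All 5 members lie between the dashed lines, with Mir23b the lowest at -0.32.

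The genes nearest in level over both libraries, by distance of log2 CPM among 301 other genes with at least 100 counts summed, were Mir149 (0.15) and Mir615 (0.22) for Mir23b, and Mir139 (0.12) and Mir135b (0.14) for Mir23a. For Mir27b they were Mir323 (0.075) and Mirlet7f-2 (0.16). For Mir27a they were Mir19a (0.11) and Mir5099 (0.15), and for Mir24-2 the endothelial miRNA Mir222 (0.10) and Mir3475 (0.13). With 2 libraries this is a likeness of level.

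Unequal levels within a cluster were also found in other miRNA clusters. The highest and lowest gene of cluster a differed 84.7-fold in replicate 1 and 75.4-fold in replicate 2, and those of cluster b 13.7-fold and 11.7-fold. In the Mir17hg cluster, known for promoting proliferation, the range was 2623-fold and 2559-fold from Mir17 to Mir19b-1, which shares 20 nt with Mir19b-2. Without the genes that share such a stretch it was 472-fold and 425-fold, down to Mir19a. In the miR-106b-25 cluster it was 28.8-fold and 32.2-fold from Mir93 to Mir25, and in the cluster of Mir183, Mir96 and Mir182, known from sensory organs, 3.48-fold and 3.11-fold. Mir143 exceeded Mir145a, a pair of smooth muscle and mesenchymal miRNAs, 62.9-fold and 85.4-fold. Cluster a thus lay inside the span of these clusters, and its difference from them was not tested. All 3 genes of cluster a and both of cluster b share 20 nt with another hairpin, against 2 of 6 in the Mir17hg cluster and 0 of 3 in the miR-106b-25 cluster and 0 of 3 in the Mir183, Mir96 and Mir182 cluster.

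**Figure D5:**
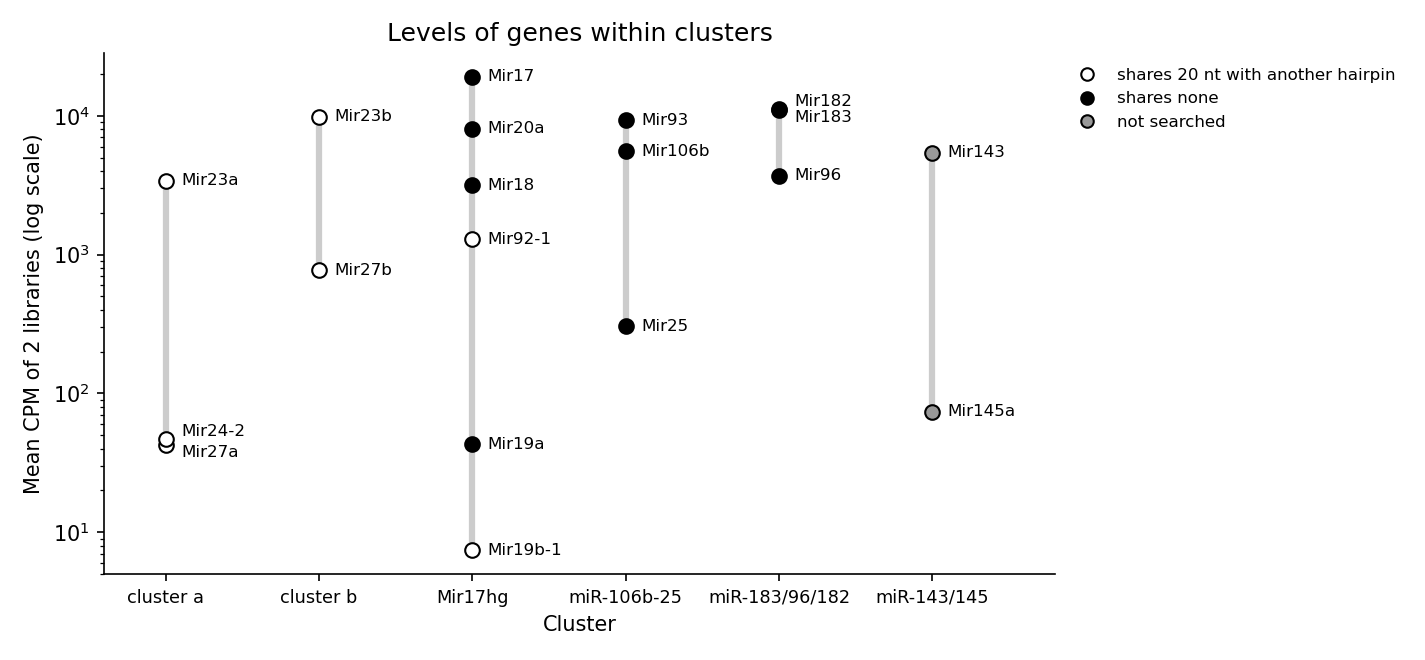
Mean CPM of 2 libraries on a log axis for each gene of cluster a, cluster b and 4 other miRNA clusters, with open points for genes that share 20 nt with another hairpin, filled points for those that share none, and grey points for genes not searched. Cluster a runs from 3398 CPM for Mir23a to 42.5 CPM for Mir27a, and cluster b from 9822 CPM for Mir23b to 772 CPM for Mir27b.

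Other paralogs transcribed from separate loci were unequal in counts too. The log2 ratio was 3.88 ± 0.29 for Mir181a-1 to Mir181a-2 and -1.58 ± 0.0015 for Mir15b to Mir15a. For Mir130b to Mir130a it was -2.01 in replicate 1 and -1.99 in replicate 2. It was -2.87 ± 0.054 for Mir99b to Mir99a and 11.9 ± 0.20 for Mir26b to Mir26a-1, of which Mir26a-1 had only 19 and 15 counts. Mir10b and Mir10a were the closest of the 6 pairs, at -0.40 ± 0.24. By size, the mean miR-23 ratio of 1.52 exceeded the Mir10 pair alone, although in replicate 1 its 1.63 lay just past the Mir15 pair (-1.58), and the miR-27 ratio of 4.18 exceeded all but Mir26b to Mir26a-1. The 6 pairs were not searched for stretches shared with other hairpins. Their counts may lack reads that map to several places, and how far this widened a ratio was not tested. These pairs place the members among other paralogs by counts only, and the members were not tested against them.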

How the data were processed

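Small RNA counts of neural tube at embryonic day 13.5 were analysed in 2 libraries of 1 group. Per the file headers, the authors quantified genes on build mm10 with annotation M4, and deposited 1 table of raw counts per library. Which aligner and counter they used is not given in the sources used here. Of 3 count columns, the second was read as same-strand, since it holds nearly all gene counts. The 4 lines of unassigned reads were left out of totals. CPM are same-strand counts scaled to the library's total over gene rows.

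Gene names and coordinates came from GENCODE M21 (GRCm38), matched without version for 1894 of 1973 genes. Sequences came from RefSeq (GRCm38.p6). Ratios used a pseudocount of 0.5, shares have Wilson intervals, ratios exact binomial intervals, and errors are SD over the libraries. Differences between libraries were computed on genes with at least 100 counts summed. Named genes were the members, genes overlapping them, the 2 nearest genes in level per member, and preset clusters, pairs and markers. The members and lists were chosen with earlier results of these data known. Alternatives were the unstranded column, other scalings, pseudocounts and minimums, and each replicate left out. The difference procedure was tested on counts simulated without added variation between libraries. That test covers counting error only, and not the spread between real libraries. Tools were Python 3.11.15 with scipy 1.17.1, and for scaling R 4.3.3 with edgeR 4.0.16 and DESeq2 1.42.0.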

Additional observations from a re-analysis of the deposited data

Results flagged for a closer look

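Above, the opposite-strand column entered a comparison only for Mir142b of the blood list. At the miR-24 locus of cluster b this column held counts beyond the 3 counts that a count of 0 allows. Mir3074-1 had 109 such counts in replicate 1, and replicate 2 had 81. These reads run in the direction of Mir24-1. Scaled to the same-strand total they amount to 14.8 ± 0.999 CPM (SD, n = 2), and they made up 10.4% and 8.51% of all reads on Mir3074-1.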

How the results depend on the processing

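None of the 22 results recomputed changed direction. Shares, CPM, the count of members and the percent of genes cannot be negative, so for these that outcome was fixed in advance. Ratios within a library do not depend on the scaling. Of the 22, 11 moved beyond the replicate SD, the counting interval or 1.5 times in at least 1 of the alternatives other than leaving out a replicate. With 2 libraries, leaving out 1 cannot move a mean past their SD and says nothing of stability. It gave the single-library values of the report. Without Mir10a in the total, cluster a stood at 0.438%, cluster b at 1.33%, and Mir23a, Mir27a, Mir24-2, Mir23b and Mir27b at 4271, 53.5, 58.9, 12336 and 971 CPM, since the total is smaller. The log2 ratio of Mir24-2 to Mir23a was -6.17 with unstranded counts and -6.16 with a pseudocount of 5. With TMM factors the replicate difference was -0.13 for Mir23a and -0.35 for Mir23b, and with DESeq2 size factors -0.34 for Mir23b. The share of genes past 0.5 log2 units was 16.8% with at least 20 counts summed and 43.4% with at least 1. Crediting the opposite-strand counts of Mir3074-1 to Mir24-1 left the cluster shares and the cluster b to cluster a ratio within the replicate SD. With 109 and 81 counts beside 82104 and 54465 for cluster b, little movement was possible. The ratio of Mir24-2 to Mir23a does not include Mir24-1, so its outcome was fixed in advance. Mir27a and Mir24-2, with 250 to 339 counts per library, are the members whose ratios depth limits most. No paired analysis was possible because the labels give 1 group only.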
